A study of Mus musculus with 10 samples.

Results

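The genes described here encode serotonin receptors in the mouse brain: Htr1a, Htr1b, Htr1d, Htr1f, Htr5a, Htr5b, Htr2a, Htr2c, Htr4 and Htr7. They were named as a family, matched by gene symbol to Ensembl identifiers in GENCODE M21, and make up 10 of the 47729 genes in the count table. The table holds RNA sequencing libraries of hypothalamus, hippocampus and prefrontal cortex, taken on postnatal day 56 from mice of the outbred CF1 stock. The low-protein (LP) animals had parents given an LP diet at mating and dams that stayed on it through pregnancy and nursing, and the normal-protein (NP) animals had parents and dams on an NP diet. The parents of both groups ate the NP diet for 5 days before mating, and the offspring of both groups were weaned at postnatal day 21 and ate the NP diet for the last 5 weeks. Hippocampus and prefrontal cortex were profiled in females and males and hypothalamus in males only, with 1 LP and 1 NP library for each region and sex, 10 libraries in all. The labels do not say whether a library came from 1 animal or from a pool, nor whether regions came from the same animals, so the p-values below measure the spread between these libraries.

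Serotonin reaches forebrain regions through axons of neurons whose cell bodies lie in the raphe nuclei of the brainstem, so the receptor transcripts measured in a forebrain region come mainly from cells resident there, which receive the signal. All 10 genes encode G protein-coupled receptors. The products of Htr1a, Htr1b, Htr1d, Htr1f, Htr5a and Htr5b couple mainly to Gi/o proteins, which lower cyclic AMP, and Htr1a and Htr1b also act as autoreceptors on serotonin neurons. Those of Htr2a and Htr2c couple to Gq, which activates phospholipase C, and those of Htr4 and Htr7 couple to Gs, which raises cyclic AMP. In bulk tissue, fewer cells that express a receptor and less of its RNA per cell cannot be told apart.

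The promoter sequences of Htr1a and Htr7 are shown because Htr1a led the length-scaled levels of the family in hippocampus and Htr7 in the other regions. The sequences are from RefSeq (GRCm38.p6) and run from 250 bases before the transcription start to 50 bases after it. That of Htr1a lies at chr13:105443443-105443742 on the plus strand, and that of Htr7 at chr19:36057311-36057610 on the minus strand. Capitals mark a match to the GC box.
Htr1a: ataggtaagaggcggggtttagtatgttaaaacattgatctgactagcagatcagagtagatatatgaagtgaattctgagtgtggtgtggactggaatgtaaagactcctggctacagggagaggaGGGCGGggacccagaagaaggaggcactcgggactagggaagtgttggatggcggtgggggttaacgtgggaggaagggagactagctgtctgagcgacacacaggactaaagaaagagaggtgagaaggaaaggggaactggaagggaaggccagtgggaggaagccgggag
Htr7: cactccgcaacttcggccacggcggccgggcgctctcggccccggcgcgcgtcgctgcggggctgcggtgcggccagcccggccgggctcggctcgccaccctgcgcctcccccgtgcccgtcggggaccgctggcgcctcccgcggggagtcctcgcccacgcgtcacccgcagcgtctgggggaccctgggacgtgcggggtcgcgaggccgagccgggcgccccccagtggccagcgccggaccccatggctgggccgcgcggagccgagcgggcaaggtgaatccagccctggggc
The Htr1a promoter was 52.3% G and C, next to a median of 52.7% over 32851 mouse promoters in the same table, and the Htr7 promoter was 81.0% G and C. On both strands the GC box (GGGCGG) was found in 35.7% of those promoters and the TATA box (TATAAA) in 13.6%, and matches of one cannot overlap those of the other, since they share no letter. The Htr1a window held 1 GC box and no TATA box, and the Htr7 window held neither motif.

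Total counts ranged from 7871010 to 16265481 per library. A count of 0 allowed a level of up to 0.161 to 0.31 CPM (counts scaled to the TMM-adjusted library total), counting error only. The column of the female NP hippocampus library stops at Park7 on chromosome 4 and is empty from there on, chromosomes 5 to 9 and X, Y and M included. Its zeros there were treated as missing, which leaves 9 libraries for Htr1b, Htr2c and Htr5a. Region labels matched the sums of their marker genes: 11 hypothalamic markers summed to 622 and 984 CPM in the LP and NP hypothalamus and to at most 8.31 CPM in any other library. In the same way, 8 hippocampal markers summed to 473 to 516 CPM in hippocampus and to at most 98.8 CPM elsewhere. The neocortical sum of 8 markers set the regions less apart, at 651 to 708 CPM in prefrontal cortex and at most 569 CPM elsewhere. Of all 11 neocortical markers, 8 were lower and 3 higher in hippocampus than in prefrontal cortex, next to 26.1% and 27.3% of all genes. In hypothalamus 6 were lower and 3 higher than in prefrontal cortex, next to 30.5% and 33.2% of all genes.

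The regions differed in which receptor was most abundant per kilobase of exons, taken over all annotated exons of a gene. The order depends on that length. In CPM alone, Htr2c led in hypothalamus at 57.8 ± 5.97, with Htr7 at 30.2 ± 3.07. Likewise Htr5a led in prefrontal cortex at 27.6 ± 1.71 CPM, with Htr7 at 23.6 ± 2.95, while Htr1a led in hippocampus on both scales. Htr7 led in hypothalamus with 8.88 ± 0.904 CPM per kilobase of exons (SD, n = 2), followed by Htr2c with 6.2 ± 0.64. In hippocampus Htr1a led with 11.5 ± 0.401 CPM per kilobase (n = 4), and the next genes, Htr7 with 3.53 ± 0.237 and Htr5b with 3.38 ± 0.401, differed from each other by less than their spread. Prefrontal cortex had 3 leading genes, Htr7 with 6.94 ± 0.867, Htr1a with 5.45 ± 0.551 and Htr5a with 5.14 ± 0.318 CPM per kilobase (n = 4), of which Htr1a and Htr5a lay within their spread of each other.

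**Figure D1:**
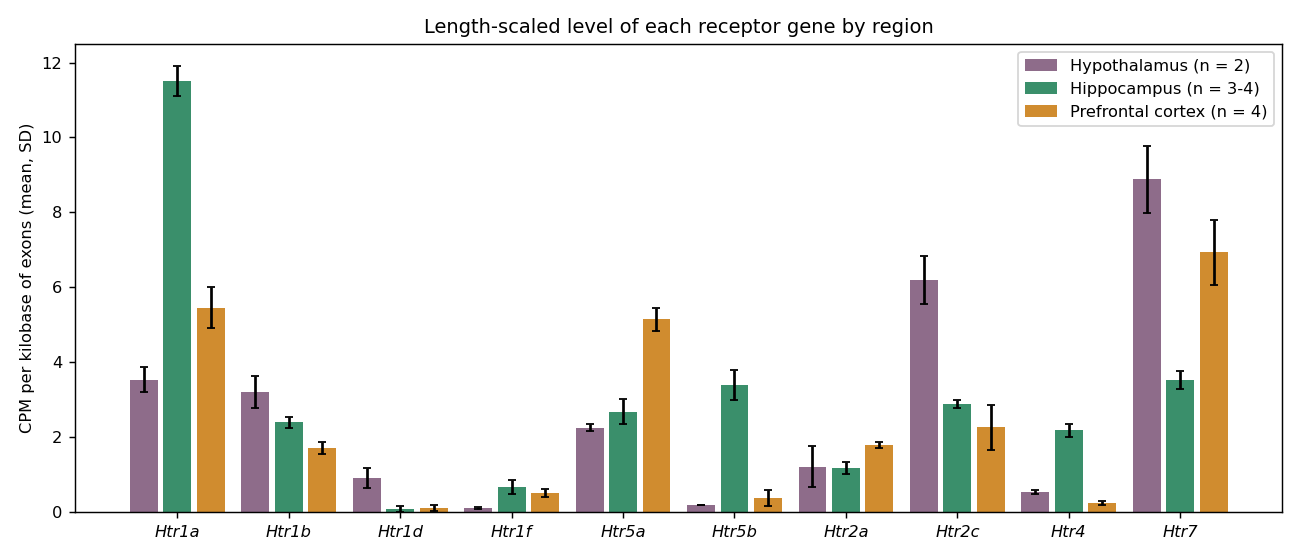
Mean level of each receptor gene in CPM per kilobase of exons, by region, with bars for the mean and lines for the SD over libraries (hypothalamus n = 2, hippocampus n = 3 or 4, prefrontal cortex n = 4). Htr1a in hippocampus, at 11.5, is the highest bar, and Htr7 leads in hypothalamus at 8.88 and in prefrontal cortex at 6.94.

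The summed length-scaled level of the family was 27 CPM per kilobase in hypothalamus, 30.5 in hippocampus and 24.5 in prefrontal cortex. Receptors that couple to Gi/o made up 37.7% of that sum in hypothalamus, 68.0% in hippocampus and 54.2% in prefrontal cortex. The Gq-coupled pair made up 27.5% in hypothalamus, 13.3% in hippocampus and 16.5% in prefrontal cortex, and the Gs-coupled pair 34.9%, 18.8% and 29.3% in the same order of regions. Htr1a alone made up 37.8% of the sum in hippocampus, and Htr7 alone 32.9% in hypothalamus and 28.3% in prefrontal cortex. These shares are descriptions of mean levels, depend on the exon lengths used as divisors, and were not tested.

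Tested gene by gene with edgeR's quasi-likelihood test over all genes, with region, sex and diet as additive terms, most of the family differed between regions, as did most genes in the table. Between hypothalamus and hippocampus, 4 of the 10 genes were higher in hypothalamus, 4 were lower and 2 did not pass a Benjamini-Hochberg adjusted p of 0.05. Of all 17550 genes tested, 60.3% passed, 30.4% higher and 29.9% lower. Between hypothalamus and prefrontal cortex, 5 were higher, 4 lower and 1 did not pass, against 63.6% of all genes that passed, 33.2% higher and 30.5% lower. Between hippocampus and prefrontal cortex, 4 were higher, 3 lower and 3 did not pass, against 53.4% of all genes that passed, 27.3% higher and 26.1% lower. The CPM of single libraries did not overlap for 9, 9 and 7 of the 10 genes in these comparisons, against 69.7%, 69.0% and 50.5% of all genes. Being called between regions was thus common to most genes, and nothing is read from the family's share. Since hypothalamus was profiled in males only, its comparisons lean on the sex term of the other regions. All 10 genes passed the filter on low counts, Htr1d through the hypothalamus libraries alone. The place of Htr1d among the 4 and the 5 genes higher in hypothalamus thus followed from the filter. Htr5b passed it only with its hippocampus libraries, since its counts elsewhere were too low to pass by themselves. Its places among the 4 genes higher in hippocampus than in prefrontal cortex and the 4 lower in hypothalamus than in hippocampus followed likewise.

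**Figure D2:**
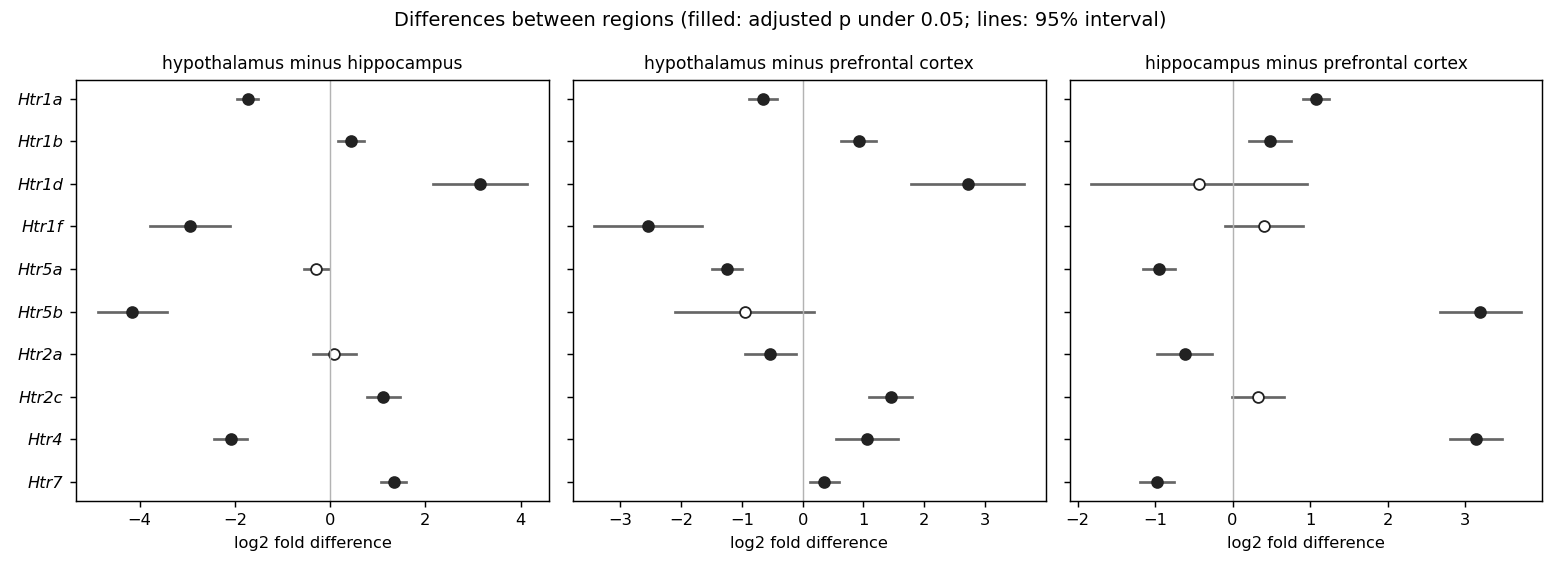
Fitted log2 differences between regions for each receptor gene, with 95% intervals as lines and filled points for an adjusted p under 0.05. Htr4 lies at 3.14 between hippocampus and prefrontal cortex. Htr5b, which passed the filter on low counts only with its hippocampus libraries, lies at 3.20 there and at -4.16 between hypothalamus and hippocampus.

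Htr1a, the inhibitory receptor of pyramidal neurons and the somatic autoreceptor of serotonin neurons (ENSMUSG00000021721, GRCm38, chr13:105443639-105448122), had 16.9 CPM in LP and 14.8 CPM in NP hypothalamus. In hippocampus it had 49.0 and 52.5 CPM in LP females and males, and 52.1 and 52.8 CPM in NP females and males. In prefrontal cortex it had 21.9 and 26.7 CPM in LP females and males, and 26.4 and 22.7 CPM in NP females and males. The 3 regions did not overlap, with hippocampus highest and hypothalamus lowest. The level in hypothalamus was 0.301 times that in hippocampus (log2 -1.73 ± 0.10 SE, adjusted p = 2.69e-09, edgeR) and 0.635 times that in prefrontal cortex (-0.65 ± 0.11, adjusted p = 0.000108). That in hippocampus was 2.11 times that in prefrontal cortex (1.08 ± 0.08, adjusted p = 3.51e-08).

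Htr5b, a receptor gene intact in mouse and disrupted in the human genome (ENSMUSG00000050534, chr1:121509842-121528465), had 0.356 CPM in LP and 0.376 CPM in NP hypothalamus, which are 6 and 7 counts. Hippocampus had 5.59 and 6.27 CPM in LP females and males, and 7.36 and 6.93 CPM in NP females and males. Prefrontal cortex had 0.827 and 0.305 CPM in LP females and males, and 0.478 and 1.24 CPM in NP females and males. All 4 hippocampus libraries lay above all others, while hypothalamus and prefrontal cortex overlapped. Since Htr5b passed the filter on low counts only with its hippocampus libraries, its differences from hippocampus are given as a description. In the fit, the level in hippocampus was 9.18 times that in prefrontal cortex (95% interval 6.39 to 13.2, log2 3.20). That in hypothalamus was 0.0561 times that in hippocampus (95% interval 0.0339 to 0.093, log2 -4.16). Hypothalamus against prefrontal cortex did not pass (log2 -0.96 ± 0.53, adjusted p = 0.13, edgeR). Gm8217, a gene within the intron of Htr5b, had at most 1 count in any library.

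Htr5a, the related receptor on chromosome 5 (ENSMUSG00000039106, chr5:27842149-27855088), had the opposite order of hippocampus and prefrontal cortex. It had 12.4 CPM in LP and 11.7 CPM in NP hypothalamus, and 12.4 and 14.8 CPM in LP female and male hippocampus against 15.9 CPM in the NP male one. Prefrontal cortex had 27.3 and 29.7 CPM in LP females and males, and 27.9 and 25.6 CPM in NP females and males. All 4 prefrontal libraries lay above all others. The level in hippocampus was 0.518 times that in prefrontal cortex (log2 -0.95 ± 0.10, adjusted p = 1.71e-06, edgeR), and that in hypothalamus 0.423 times (-1.24 ± 0.11, adjusted p = 3e-07). The fitted difference between hypothalamus and hippocampus did not pass (-0.29 ± 0.12, adjusted p = 0.0544), but passed without the male NP prefrontal library (adjusted p = 0.0219) or without the female LP hippocampus library (adjusted p = 0.0261).

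Htr1b, the terminal autoreceptor and heteroreceptor (ENSMUSG00000049511, chr9:81628291-81633828), was highest in hypothalamus and lowest in prefrontal cortex. It had 16.6 CPM in LP and 13.7 CPM in NP hypothalamus, and 11.1 and 10.7 CPM in LP female and male hippocampus against 12.1 CPM in the NP male one. Prefrontal cortex had 8.78 and 8.24 CPM in LP females and males, and 8.23 and 7.08 CPM in NP females and males. The 3 regions did not overlap. The level in hypothalamus was 1.89 times that in prefrontal cortex (log2 0.92 ± 0.14, adjusted p = 3.64e-05, edgeR). The neighbouring steps were smaller: 1.35 times for hypothalamus over hippocampus (0.44 ± 0.13, adjusted p = 0.00937) and 1.40 times for hippocampus over prefrontal cortex (0.48 ± 0.13, adjusted p = 0.00541). The step from hippocampus to hypothalamus lost its call with DESeq2 (adjusted p = 0.0789), without the male LP hippocampus library (0.0752) and without the LP hypothalamus library (0.149), and that between hippocampus and prefrontal cortex without the male NP hippocampus library (0.0678). An antisense gene, D430036J16Rik, overlaps an exon of Htr1b and had at most 3 counts in any library.

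Htr1d and Htr1f, both Gi/o-coupled, had low counts and opposite patterns. Htr1d (ENSMUSG00000070687, chr4:136423524-136444398) had 59 counts in LP and 43 in NP hypothalamus. It had 2 and 7 counts in LP female and male hippocampus and 0 and 3 in NP female and male hippocampus, and 2 and 8 counts in LP female and male prefrontal cortex and 5 and 1 in the NP ones. No library outside hypothalamus exceeded 8 counts or 0.61 CPM, next to 3.50 and 2.31 CPM in LP and NP hypothalamus. Since Htr1d passed the filter through the hypothalamus libraries alone, its differences are given as a description, 3.15 over hippocampus and 2.72 over prefrontal cortex on the fitted log2 scale, with intervals of the fold from 4.45 to 17.6 and from 3.45 to 12.5. Without the male LP hippocampus library the difference from hippocampus was 3.83 on the log2 scale.

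Htr1f (ENSMUSG00000050783, chr16:64924729-65105854) had 0.297 CPM in LP and 0.215 CPM in NP hypothalamus, which are 5 and 4 counts. In hippocampus it had 1.17 and 1.75 CPM in LP females and males, and 1.65 and 2.34 CPM in NP females and males. In prefrontal cortex it had 1.14 and 1.68 CPM in LP females and males, and 1.05 and 1.32 CPM in NP females and males. Both hypothalamus libraries lay below all others, while hippocampus and prefrontal cortex overlapped. Htr1f was lower in hypothalamus than in hippocampus (log2 -2.95 ± 0.39, adjusted p = 1.57e-05, edgeR) and than in prefrontal cortex (-2.54 ± 0.41, adjusted p = 9.65e-05). Between hippocampus and prefrontal cortex it did not pass (0.41 ± 0.23, adjusted p = 0.159), with an interval of the fold from 0.937 to 1.88.

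**Figure D3:**
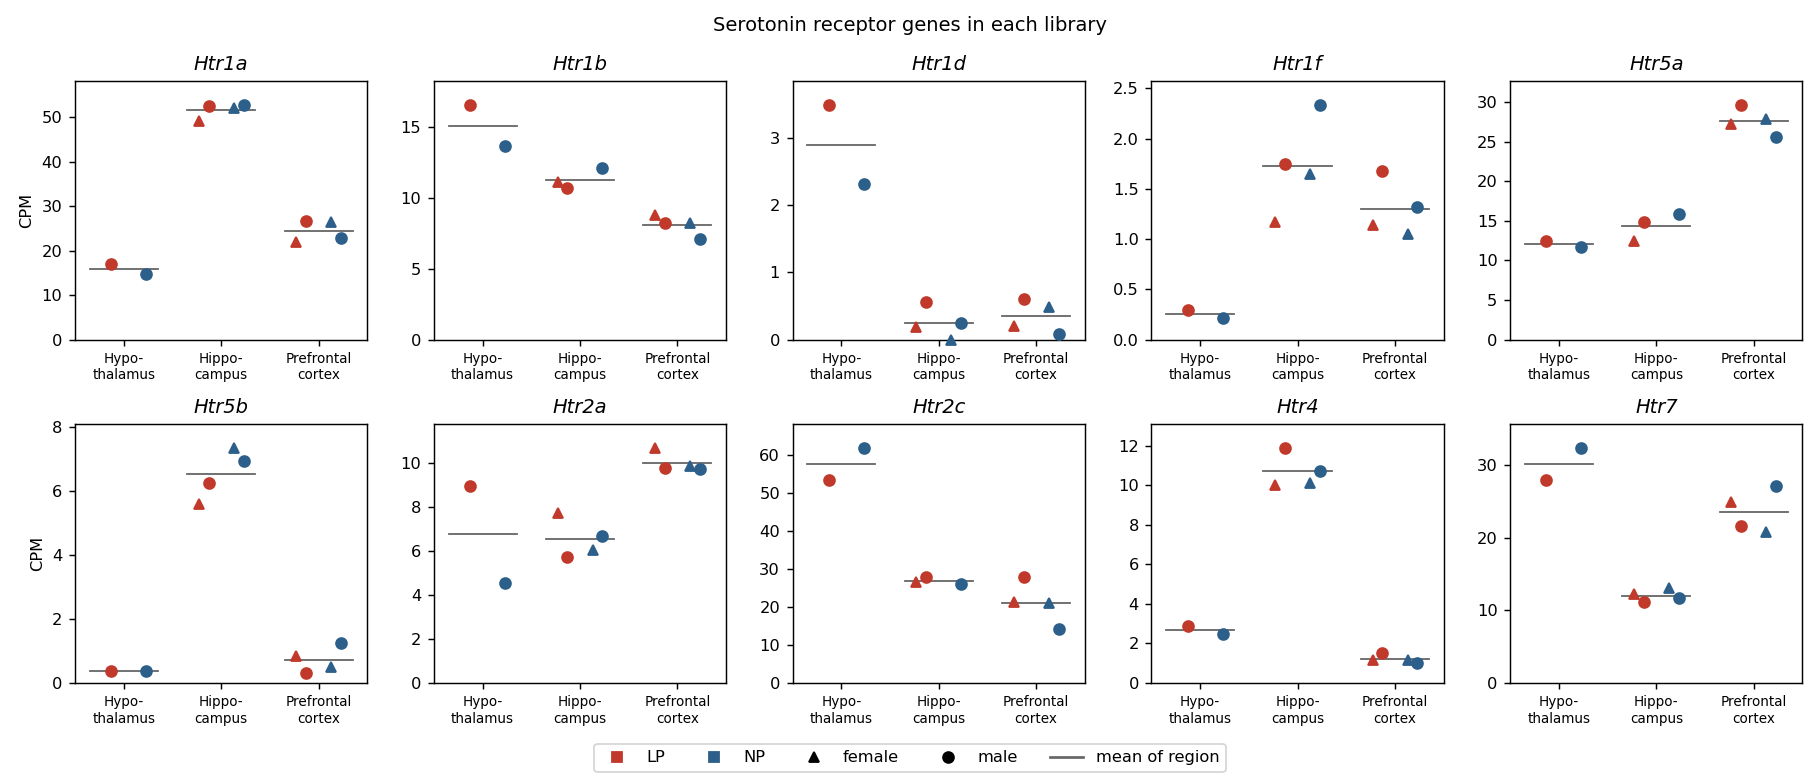
CPM of each receptor gene in every library (linear axes from 0), LP in red and NP in blue, females as triangles and males as circles, with grey lines for region means. Hippocampus stands above the other regions for Htr1a, Htr5b and Htr4, prefrontal cortex for Htr5a and Htr2a, and hypothalamus for Htr1b, Htr1d, Htr2c and Htr7.

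Htr2c, a Gq-coupled receptor known in hypothalamus for its part in the control of feeding (ENSMUSG00000041380, chrX:146962513-147197277), had 53.6 CPM in LP and 62.0 CPM in NP hypothalamus. Hippocampus had 26.6 and 27.9 CPM in LP females and males and 26 CPM in NP males. Prefrontal cortex had 21.4 and 27.8 CPM in LP females and males, and 21 and 14.2 CPM in NP females and males. Hypothalamus lay above every other library, and hippocampus overlapped prefrontal cortex. The level in hypothalamus was 2.17 times that in hippocampus (log2 1.12 ± 0.16, adjusted p = 3.14e-05, edgeR) and 2.73 times that in prefrontal cortex (1.45 ± 0.16, adjusted p = 2.64e-06). Hippocampus against prefrontal cortex did not pass (0.33 ± 0.16, adjusted p = 0.0921), but passed without the male LP prefrontal library (0.64, adjusted p = 0.00111).

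Choroid plexus epithelium is a known site of abundant Htr2c RNA, so its markers are given beside these levels. The summed CPM of 6 of 10 choroid plexus markers was 54.3 and 59.0 in LP and NP hypothalamus, 203 and 224 in LP female and male hippocampus, and 52.1 and 119 in NP female and male hippocampus. It was at most 2.80 in prefrontal cortex, where 1 to 4 of the markers were at 0 in each library. The 3 hippocampus libraries in which Htr2c was measured had choroid sums of 119 to 224 CPM and lower Htr2c levels than either hypothalamus library. The part of choroid plexus RNA in the Htr2c levels was not tested. Of the 8 small RNA genes that lie within Htr2c, none had a count in any library.

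Htr2a, the Gq-coupled receptor of cortical pyramidal neurons (ENSMUSG00000034997, chr14:74640840-74709494), had 8.96 CPM in LP and 4.56 CPM in NP hypothalamus. Hippocampus had 7.75 and 5.71 CPM in LP females and males, and 6.06 and 6.68 CPM in NP females and males. Prefrontal cortex had 10.7 and 9.76 CPM in LP females and males, and 9.85 and 9.72 CPM in NP females and males. All 4 prefrontal libraries lay above all others, and the hypothalamus pair spanned the hippocampus range. The level in hippocampus was 0.652 times that in prefrontal cortex (log2 -0.62 ± 0.16, adjusted p = 0.00577, edgeR). That in hypothalamus was 0.692 times that in prefrontal cortex (-0.53 ± 0.20, adjusted p = 0.0306), a call lost with DESeq2 (0.0587), with no filter on low counts (0.05) and without the male NP prefrontal library (0.138), and reduced to -0.12 (0.555) without the NP hypothalamus library. Hypothalamus against hippocampus did not pass (0.09 ± 0.21, adjusted p = 0.744), but did at 0.49 without the NP hypothalamus library (adjusted p = 0.0311).

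Htr4, a Gs-coupled receptor (ENSMUSG00000026322, chr18:62324204-62496577), had 2.85 CPM in LP and 2.47 CPM in NP hypothalamus. Hippocampus had 10.0 and 11.9 CPM in LP females and males, and 10.1 and 10.7 CPM in NP females and males. Prefrontal cortex had 1.14 and 1.53 CPM in LP females and males, and 1.15 and 0.988 CPM in NP females and males. The 3 regions did not overlap. The level in hippocampus was 8.82 times that in prefrontal cortex (95% interval 6.97 to 11.2, log2 3.14 ± 0.16, adjusted p = 1.05e-09, edgeR). That in hypothalamus was 0.236 times that in hippocampus (-2.08 ± 0.16, adjusted p = 5.65e-08) and 2.08 times that in prefrontal cortex (1.06 ± 0.24, adjusted p = 0.00143).

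Htr7, the other Gs-coupled member, which is known in hypothalamus for its part in circadian phase shifts (ENSMUSG00000024798, chr19:35958734-36057507), had 28.0 CPM in LP and 32.4 CPM in NP hypothalamus. Hippocampus had 12.3 and 11.1 CPM in LP females and males, and 13.0 and 11.7 CPM in NP females and males. Prefrontal cortex had 24.9 and 21.6 CPM in LP females and males, and 20.8 and 27.1 CPM in NP females and males. Hippocampus lay below all other libraries, in contrast to Htr4, and both hypothalamus libraries lay above the highest prefrontal one. The level in hypothalamus was 2.52 times that in hippocampus (log2 1.33 ± 0.12, adjusted p = 3.01e-07, edgeR), and that in hippocampus 0.509 times that in prefrontal cortex (-0.97 ± 0.10, adjusted p = 2.43e-06). The smaller difference between hypothalamus and prefrontal cortex (0.36 ± 0.11, adjusted p = 0.0118) lost its call without the male LP prefrontal library (0.0633) or without the NP hypothalamus library (0.0929).

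The perinatal diet was compared within each region and sex, LP against NP. Over the 5 pairs, 0 of the 10 receptor genes passed an adjusted p of 0.05 in edgeR, against 1.25% of the 17797 genes tested. At an unadjusted p under 0.05 the counts were 1 of the 10 and 2442 of all genes. DESeq2 also called 0 of the 10. The fitted differences were positive for 7 genes and negative for 3, with a median of 0.09 on the log2 scale, next to -0.00057 for all genes.

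The 95% intervals of these estimates differed between genes. For Htr1a the fitted LP over NP fold was within 0.904 to 1.12, for Htr5a within 0.916 to 1.17, and for Htr7 within 0.816 to 1.05. For Htr1b the interval was 0.923 to 1.28, for Htr4 0.905 to 1.31, for Htr2c 0.896 to 1.37 and for Htr2a 0.962 to 1.51. Thus a 2-fold diet difference shared by all pairs, in either direction, lay outside the intervals of these 7 genes. The intervals do not bound the difference in a single pair, which was 1.96 for Htr2a in hypothalamus and for Htr2c in male prefrontal cortex. The 3 other genes had wider intervals, 0.601 to 1.09 for Htr5b, 0.652 to 1.32 for Htr1f and 1.01 to 2.58 for Htr1d. Of these, that of Htr1d alone held a 2-fold difference.

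Htr1d had the smallest p of the family (log2 0.69 ± 0.31, adjusted p = 0.347, edgeR) and was higher in LP in 4 of 5 pairs. Its counts were 59 in LP against 43 in NP hypothalamus, 2 against 0 and 7 against 3 in female and male hippocampus, and 2 against 5 and 8 against 1 in female and male prefrontal cortex. In 4 of these 5 pairs neither library exceeded 8 counts.

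**Figure D4:**
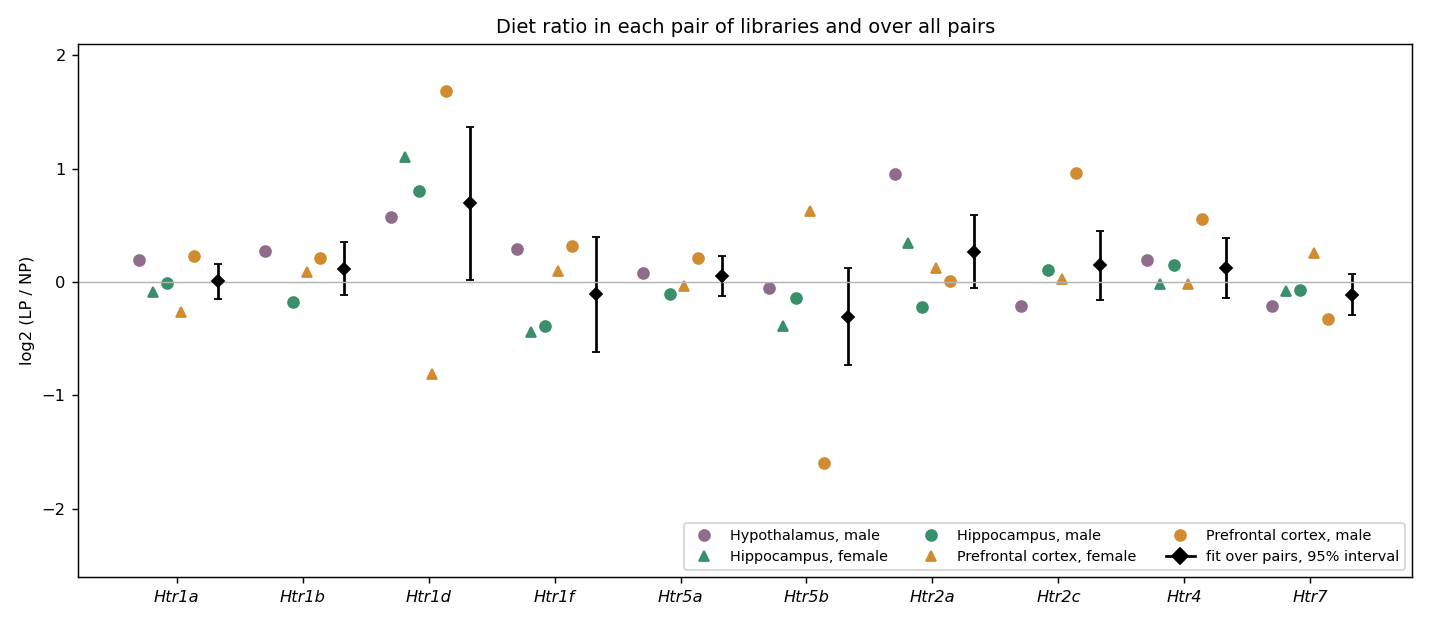
Log2 ratio of LP over NP for each receptor gene in every pair of libraries (coloured points, prior count of 2, females as triangles and males as circles) and the fit over pairs with its 95% interval (black diamonds). Of the 10 intervals, that of Htr1d alone lies apart from 0, and single pairs of Htr2a, Htr2c and Htr5b lie far from the other pairs of the same gene.

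Single pairs hold 1 library per diet and have no test, so each ratio is given with an exact 95% interval that covers counting error only. In the male prefrontal cortex Htr2c had 364 counts in LP against 172 in NP, or 27.8 against 14.2 CPM, a ratio of 1.96 (1.63 to 2.36). In the female prefrontal cortex it had 207 counts in LP against 220 in NP, a ratio of 1.02 (0.837 to 1.23), and in the male hippocampus 352 against 311, a ratio of 1.08 (0.921 to 1.26). In hypothalamus the ratio lay below 1, with 903 counts in LP against 1156 in NP, at 0.864 (0.791 to 0.943). The male NP prefrontal library was the lowest of all 9 libraries for Htr2c, and the male LP one was the highest of prefrontal cortex. In the male prefrontal pair, 5 of 8 oligodendrocyte markers summed to 1090 CPM in LP against 1560 CPM in NP, 8 of 11 neocortical markers to 651 against 708 CPM, and the choroid markers to 1.37 against 2.80 CPM. The part of these differences in the Htr2c ratio was not tested.

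In hypothalamus Htr2a had 151 counts in LP against 85 in NP, a ratio of 1.96 (1.5 to 2.59). No other pair came near this ratio: it was 1.28 in female and 0.856 in male hippocampus, and 1.09 in female and 1.00 in male prefrontal cortex, each with an interval that holds 1. Htr1b in hypothalamus had a ratio of 1.21 (1.02 to 1.44), with 279 counts in LP against 255 in NP. Htr1d there had a ratio of 1.52 (1.01 to 2.3), with 59 counts in LP against 43 in NP. Htr7 had a ratio of 0.866 (0.766 to 0.978), with 472 counts in LP against 603 in NP. With Htr2a and Htr2c, 5 of the 10 receptor genes had an interval apart from 1 in hypothalamus. Such intervals were common in this pair: 31.9% of all genes with a mean of at least 10 counts had one, the highest share of the 5 pairs. The LP and NP hypothalamus libraries also differed in markers of place and cell type: hypothalamic markers summed to 622 CPM in LP against 984 CPM in NP, oligodendrocyte markers to 2030 against 2720 CPM, and 8 of 12 thalamus and habenula markers to 115 against 96.2 CPM. Their part in the receptor ratios was not tested.

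The other Gs- and Gi/o-coupled genes differed little or without a common direction in prefrontal cortex. Htr7 had a ratio of 1.20 (0.994 to 1.45) in females and 0.797 (0.677 to 0.937) in males, and Htr1a a ratio of 0.83 (0.69 to 0.996) in females and 1.17 (1.00 to 1.38) in males. The ratios of both genes thus lay on opposite sides of 1 in females and males. Htr5b had 8 counts in LP against 5 in NP in females and 4 against 15 in males, a ratio of 0.247 (0.0597 to 0.775) in males, at 0.305 against 1.24 CPM. In female and male hippocampus the intervals of all members measured held 1, among them Htr1a with ratios of 0.939 in females and 0.994 in males and Htr7 with 0.944 in females and 0.951 in males. For the background, intervals lay apart from 1 for 16.3% of genes in the female and 26.9% in the male prefrontal pair, and for 13.0% in the female and 16.7% in the male hippocampus pair.

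Diet was also tested within a region for the 7 genes measured in all libraries (Htr1a, Htr1d, Htr1f, Htr2a, Htr4, Htr5b and Htr7), with 2 residual degrees of freedom. In hippocampus 0 of 7 passed in edgeR, against 0.328% of all genes, and in prefrontal cortex 0 of 7, against 1.79%. The difference between hippocampus and prefrontal cortex in the diet effect passed for 0 of 7, against 0.0% of all genes. The difference between females and males in the diet effect passed for 0 of 6, against 0.173% of all genes, with Htr7 at 0.35 ± 0.18 on the log2 scale (adjusted p = 0.756) and Htr1a at -0.25 ± 0.13 (adjusted p = 0.757). None of the receptor genes tested had an unadjusted p under 0.05 in any of these 4 comparisons, and DESeq2 called none of them. Over all genes, 694 had such a p in hippocampus, 1566 in prefrontal cortex, 637 in the difference between these regions and 714 in that between females and males. These tests required at least 2 residual degrees of freedom, which left out Htr1b, Htr2c and Htr5a, with 1. In a fit that allowed 1, added after the data were seen, Htr2c was higher in LP in prefrontal cortex (log2 0.51, adjusted p = 0.00261, edgeR), where 2.57% of all genes passed, while its female and male pairs had ratios of 1.02 and 1.96. Its diet effect in hippocampus minus prefrontal cortex did not pass in that fit (-0.41, adjusted p = 0.924, edgeR), against 0.0658% of all genes. Htr1b and Htr5a passed in none of the 4 comparisons, and Htr2c passed neither in hippocampus, against 0.439% of all genes, nor in the difference between females and males, against 0.112%.

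Females and males were compared within region and diet over the hippocampus and prefrontal libraries. Of the 9 genes tested, 0 passed in edgeR, against 0.465% of all genes, and 0 were called by DESeq2. At an unadjusted p under 0.05 the counts were 0 of the 9 and 1513 of all genes. Htr1f came nearest, lower in females by 0.49 ± 0.23 on the log2 scale (adjusted p = 0.566, edgeR), with 1.17 against 1.75 CPM in LP hippocampus and 1.65 against 2.34 CPM in NP hippocampus. In prefrontal cortex Htr1f had 1.14 CPM in LP females against 1.68 in LP males and 1.05 in NP females against 1.32 in NP males, so that females were lower in 4 of 4 pairs. The 95% interval of the female over male fold was 0.868 to 1.08 for Htr1a, 0.837 to 1.18 for Htr2c and 0.856 to 1.17 for Htr7. Htr1d did not pass the filter on low counts in these libraries and was not tested.

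The remaining serotonin receptors in the list drawn up for the pathway were Htr2b, Htr3a, Htr3b and Htr6. Htr3a, a subunit of the ligand-gated ion channel of this receptor family, had 0.589 ± 0.0776 CPM in hypothalamus (SD, n = 2), 6.31 ± 0.54 in hippocampus (n = 3) and 6.70 ± 0.756 in prefrontal cortex (n = 4). It was lower in hypothalamus than in hippocampus (log2 -3.47 ± 0.25, adjusted p = 2.44e-08, edgeR). Htr6, Gs-coupled like Htr4 and Htr7, had 1.99 ± 0.217, 4.62 ± 0.614 and 6.97 ± 0.846 CPM in the same regions (n = 2, 4 and 4), an order shared by neither of those genes. Htr2b had at most 0.165 CPM in any library and Htr3b at most 0.653 CPM, and neither was tested. For diet over the pairs 0 of the 2 genes tested passed, against 1.25% of all genes.

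Of 12 genes listed for serotonin synthesis, transport and breakdown, among them the transcription factors Fev and Gata3, 8 were tested. Of these, 6 were higher and 2 lower in hypothalamus than in hippocampus, against 30.4% of all genes higher and 29.9% lower. For diet over the pairs 0 passed, against 1.25% of all genes. Ddc, the decarboxylase that makes serotonin and dopamine, had 66.9 ± 15 CPM in hypothalamus (SD, n = 2), 4.81 ± 0.756 in hippocampus and 3.69 ± 0.374 in prefrontal cortex (n = 4 each). Slc29a4, a low-affinity monoamine transporter, was 4.04 times as high in hippocampus as in prefrontal cortex (log2 2.01 ± 0.10, adjusted p = 5.52e-10, edgeR), and Slc22a3, another, was 0.224 times as high (-2.16 ± 0.25, adjusted p = 5.15e-06). Of 8 markers of raphe serotonin neurons, 7 summed to 165 and 112 CPM in LP and NP hypothalamus and to at most 12.5 CPM in any other library. Among them Slc18a2, the vesicular monoamine transporter, averaged 69.8 CPM in hypothalamus, and like Ddc it also serves other monoamine neurons. Tph2, the enzyme that makes serotonin in neurons, had 5 to 6 counts in hypothalamus, 10 to 13 in hippocampus and 8 to 11 in prefrontal cortex. Fev, a transcription factor of serotonin neurons, was at 0 in 8 of 10 libraries, and Slc6a4, the serotonin transporter, was at 0 in 4 of 10.

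Effector genes downstream of the receptors were compared in the same way. Among 12 Gi/o effectors, 4 were higher, 5 lower and 3 not called in hippocampus against prefrontal cortex. There 53.4% of all genes passed, 27.3% higher and 26.1% lower. Kcnj6, a channel subunit opened by Gi/o signalling, was 2.45 times as high in hippocampus as in prefrontal cortex (log2 1.29 ± 0.08, adjusted p = 1.01e-08, edgeR), and Kcnj9, another, 0.438 times as high (-1.19 ± 0.04, adjusted p = 5.4e-11). Kcnj5 had 16.8 ± 0.996 CPM in hypothalamus (n = 2) and at most 0.31 CPM in any other library. Among 10 Gq effectors, 3 were higher and 7 lower in hypothalamus than in hippocampus, with Prkcb, a protein kinase C, at 0.216 times (log2 -2.21 ± 0.07, adjusted p = 1.63e-12, edgeR). In that comparison 60.3% of all genes passed, 30.4% higher and 29.9% lower. Among 14 Gs effectors, 2 were higher, 11 lower and 1 not called in hippocampus against prefrontal cortex. Of all genes, 27.3% were higher and 26.1% lower there, and the split of the Gs list was not tested. Adcy1, an adenylyl cyclase, was 0.0309 times as high in hypothalamus as in hippocampus (-5.02 ± 0.07, adjusted p = 4.02e-15).

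For diet over the 5 pairs, 0 members passed in each of these lists and in a list of 12 receptor partners and RNA editing enzymes. Since 1.25% of all genes passed there, nothing is read from these zeros. Within prefrontal cortex 8 Gi/o effectors, 7 Gq effectors, 12 Gs effectors and 9 partners and editing enzymes were tested. Of these, 1 passed, against 1.79% of all genes. It was Rgs2, a regulator that shortens Gq signalling, which was higher in LP (log2 0.41 ± 0.08, adjusted p = 0.00956, edgeR). Over all genes, 212 calls in this comparison became 14 with DESeq2. Cell type markers also passed there: 5 of 8 oligodendrocyte markers were tested and all 5 were lower in LP, with log2 differences from -0.87 for Ermn to -0.36 for Mbp. Of 8 neocortical markers tested, 1 passed, Bcl11b, which was higher (0.30), while 6 of the 8 differences were negative and 2 positive. The part of these cell type markers in the Rgs2 difference was not tested.

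For each receptor gene with a mean of at least 1 CPM, the genes with the most similar level across libraries were found by Pearson's r of log2 CPM, as a description that rests mainly on the differences between regions. Over 10 libraries and 9048 genes, Htr1a was most like Adgrb3 (r = 0.9915) and Cdh9 (0.9914), Htr4 most like Slit1 (0.9954) and Ust (0.9945), and Htr7 most like Lgmn (0.987) and Fggy (0.9842). Actr2 was among the genes most like Htr5b (0.9857). Htr1f was most like Mylip (0.9788) and Gldc (0.9784), and Htr2a like Trabd2b (0.9597) and Eng (0.9547). Over 9 libraries and 13685 genes, Htr5a was most like Gramd2 (0.9984), Htr1b like Zfp280b (0.993) and Htr2c like Cd1d1 (0.9771). Htr2a had the lowest best match of the family.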

How the data were processed

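The deposited values are raw counts for each Ensembl gene and library, which the authors did not normalize. The submitters' processing notes name CASAVA, FastQC 0.10.1, the aligner STAR 2.5.0a and the build mm10. Per the labels' protocols, 1 µg of total RNA per library was used with the TruSeq kit. The sources used here do not give the counting tool, its strand setting or its annotation, so counts of overlapping genes are uncertain. Symbols and coordinates came from GENCODE M21 (GRCm38) for 47310 of 47729 genes. In the incomplete female NP hippocampus library 19598 genes were treated as missing.

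Genes were filtered with filterByExpr (minimum count 10), scaled by TMM and tested with the quasi-likelihood test of edgeR 4.0.16 in R 4.3.3, with Benjamini-Hochberg adjustment at 0.05 over all genes tested. Genes missing in 1 library were fitted over the other libraries, where these left at least 2 residual degrees of freedom. Diet was fitted within strata of region and sex, sex within strata of region and diet, and regions with sex and diet as additive terms. CPM used the TMM totals, rescaled in the incomplete library by the share of counts that the other libraries had on the genes it holds; levels between genes were divided by exon length. Pair ratios had exact conditional 95% intervals, counting error only, and their log2 values a prior count of 2. The scripts were tested on simulated data. The members, gene lists and tests were chosen with earlier results of these data known. All receptor genes are named; from each other gene list, genes among the 4 smallest p-values past the threshold are named. A few genes that these rules name are left out. DESeq2 1.42.0, RLE scaling, no filter, edgeR's legacy method, the zeros kept and leaving out libraries were alternatives.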

Additional observations from a re-analysis of the deposited data

Results flagged for a closer look

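Htr1f was picked out because its diet ratio had 1 sign in both hippocampus pairs and the opposite sign in both prefrontal pairs. The log2 ratio of LP over NP was -0.44 in female and -0.39 in male hippocampus, and 0.10 in female and 0.32 in male prefrontal cortex, so that the means differed by -0.62 (hippocampus minus prefrontal cortex). The counts were 13 in LP against 19 in NP and 22 against 28 in hippocampus, and 11 against 11 and 22 against 16 in prefrontal cortex, females before males. That split of signs was not itself tested; the difference fitted by edgeR was -0.70 ± 0.51 with an adjusted p of 0.984.

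Htr4 was picked out because LP was lower in both female pairs and higher in both male pairs of hippocampus and prefrontal cortex. The log2 ratio was -0.02 in female and 0.15 in male hippocampus, and -0.01 in female and 0.56 in male prefrontal cortex, so that the means differed by -0.37 (female minus male). The counts were 111 in LP against 117 in NP and 150 against 128 in hippocampus, females before males. In prefrontal cortex they were 11 against 12 and 20 against 12. The female ratios lay close to 1, and the exact 95% interval of each pair held 1. The difference fitted by edgeR was -0.23 ± 0.27 with an adjusted p of 0.887, and the split of signs was not tested.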

How the results depend on the processing

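Of the single-gene results recomputed under the alternatives, 820 kept their direction and side of the threshold, 46 changed sign, 21 lost their call and 4 gained one. With the zeros of the incomplete library kept as counts, the receptor genes called were 4 (7 with them missing) between hippocampus and prefrontal cortex, 5 (8) between hypothalamus and hippocampus and 3 (9) between hypothalamus and prefrontal cortex. Htr1b then came to -0.14 and Htr2c to -0.28 between hippocampus and prefrontal cortex, and Htr1b to -0.87 between females and males. With DESeq2, the diet difference of Htr1a in prefrontal cortex was -0.0125 (-0.0037 with the legacy method), that of Htr2a in hippocampus minus prefrontal cortex -0.0015, and the female minus male difference of Htr2c 0.0329 (0.0010 with RLE). That of Htr7 was -0.0007 with no filter.

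For diet in prefrontal cortex, 0 receptor genes were called with at least 2 residual degrees of freedom and 1 where 1 was allowed, a setting added after the data were seen. Leaving out a pair, where 1 was allowed too, the count was 0 without the female or the male prefrontal pair, where Htr2c was not tested. It was 1 without any other pair. The 1 was Htr2c each time, whose 2 prefrontal pairs had log2 ratios of 0.02 (female) and 0.96 (male). Differences that changed sign ranged, for diet over the pairs, from -0.0407 to 0.0619 (Htr1a), -0.26 to 0.0431 (Htr1f), -0.0646 to 0.36 (Htr2c) and -0.0174 to 0.0903 (Htr5a). For diet in prefrontal cortex they ranged from -0.27 to 0.23 (Htr1a), -1.17 to 2.76 (Htr1d), -0.0132 to 0.62 (Htr4), -1.99 to 0.78 (Htr5b) and -0.33 to 0.26 (Htr7). In hippocampus the ranges were -0.23 to 0.35 (Htr2a) and -0.0223 to 0.15 (Htr4). For the diet effect in hippocampus minus prefrontal cortex they were -0.28 to 0.22 (Htr1a), -1.29 to 3.59 (Htr1d), -0.28 to 0.29 (Htr2a), -0.55 to 0.0885 (Htr4), -1.04 to 1.72 (Htr5b) and -0.34 to 0.25 (Htr7), and for that in females minus males -0.59 to 0.20 (Htr1f) and -0.16 to 1.68 (Htr5b). Between regions they were -1.0 to 0.0192 (Htr1d, hippocampus minus prefrontal cortex) and -0.43 to 0.49 (Htr2a, hypothalamus minus hippocampus), and between females and males -0.11 to 0.0095 (Htr1a), -0.21 to 0.20 (Htr2c), -0.18 to 0.0349 (Htr5b) and -0.0856 to 0.18 (Htr7). The cause was not tested.

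Counts of all genes called moved more. For diet over the pairs 223 became 111 with DESeq2, 1 with the zeros kept, 88 without the male hippocampus pair and 85 without the female prefrontal pair. In prefrontal cortex 212 became 14 with DESeq2, 21 with no filter, 468 with 1 residual degree of freedom allowed and 32 to 777 leaving out a pair; in hippocampus 39 became 11, 5, 80 and 28 to 135. The difference of the diet effect between these regions had 0 calls, 1 with the legacy method, 12 with 1 residual degree of freedom allowed and 0 to 58 leaving out a pair, and that between females and males had 19 calls, 12 with DESeq2, 0 with no filter and 5 to 213 leaving out a pair. Females and males differed at 79 genes, 33 with DESeq2, 34 with no filter, 0 with the zeros kept and 41 without the LP prefrontal libraries. With the zeros kept, 9366 calls between hippocampus and prefrontal cortex became 5300, 10581 between hypothalamus and hippocampus became 5573, and 11164 between hypothalamus and prefrontal cortex became 6039. The other limit is depth: Htr1d, Htr1f and Htr5b had under 10 counts in at least 2 libraries. Diet was compared within strata of region and sex, and sex within strata of region and diet. No paired analysis was possible because the labels give no number that pairs animals across groups beyond these strata.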
